A study of Mus musculus with 27 samples.

Results

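The mRNAs of 10 chaperones and folding enzymes of the endoplasmic reticulum (ER) were followed in whole livers of mice given carbon tetrachloride (CCl4), a hepatotoxin that causes fibrosis. The genes were Hspa5, Hsp90b1, Pdia3, Pdia4, Pdia6, P4hb, Dnajc10, Dnajb9, Dnajb11 and Hyou1. They were chosen by symbol, through their Ensembl identifiers, from the 55414 genes of the count table, and all 10 passed the low-count filter that left 14114 genes for testing. All of them except Dnajb9 and Dnajb11 also stand in a list that the study drew from genes lowered by both of its treatments in these same livers, so their direction in those comparisons is not independent evidence.

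Secreted and membrane proteins enter the ER as unfolded chains. HSPA5 (BiP), an HSP70 chaperone, binds exposed hydrophobic stretches in cycles of ATP hydrolysis that are set by DNAJ cofactors and by the nucleotide exchange factor HYOU1, HSP90B1 (GRP94) takes over selected clients, and protein disulfide isomerases form and rearrange disulfide bonds. When unfolded proteins build up, the sensors ATF6, IRE1 and PERK start the unfolded protein response, which raises transcription of these chaperones. Hepatocytes secrete most plasma proteins and so depend on this machinery, and collagen-producing stellate cells use it for procollagen.

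The livers came from 27 female Balb/c mice, 8 weeks old at the start of the experiment, in 8 groups. Control mice (n = 4) received olive oil intraperitoneally and PBS by tail vein for 2 weeks, and the 4MU, siLuc-LNP and siHAS2-LNP groups (n = 3 each) received olive oil with 4-methylumbelliferone (4MU, an inhibitor of hyaluronan synthesis, 600 mg/kg daily by gavage), with lipid nanoparticles (LNP) carrying a non-targeting siRNA against luciferase, or with LNP carrying an siRNA against hyaluronan synthase 2 (HAS2). In the CCl4 group (n = 2), and in the CCl4 + siHAS2-LNP, CCl4 + 4MU and CCl4 + siLuc-LNP groups (n = 4 each), CCl4 replaced the olive oil. The first siRNA dose was 1 mg/kg and later doses were 0.5 mg/kg. Each value is from a homogenate of the whole liver, in which fewer cells of a type and less RNA per cell cannot be told apart.

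Total counts were 7044386 to 29425937 per liver, the lowest in CCl4 + siHAS2-LNP mouse 4. Hepatocyte markers took the summed range of 73960 to 198900 CPM (the count of a gene scaled to a fixed library total) over all livers. Has2 itself, the target of the siRNA, had 0 to 2 counts in every liver, which is too few to show a knockdown in these libraries. Levels are given as CPM on library totals scaled by the trimmed mean of M values (TMM), and fold changes with their standard errors (SE) and Benjamini-Hochberg adjusted p-values come from edgeR's quasi-likelihood test over all 14114 genes, with 0.05 as the threshold.

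The control regions of several of these genes carry the ER stress response element (ERSE), the sequence through which the cleaved form of ATF6 acts with the CCAAT-binding factor NF-Y. The ERSE was searched as CCAAT, 9 bases of any kind and CCACG, and the related ERSE-II as ATTGG, 1 base and CCACG, on both strands from 250 bases before to 50 bases after the annotated start of the canonical transcript (GRCm39, GENCODE vM39). The ERSE occurred in 0.114% of 14080 promoters of tested genes, 16 in all, and 3 of these belong to the 10 chaperones (Hspa5, Hsp90b1 and Pdia6). The matches are shown 5′ to 3′ on the strand of the gene because they are the feature that the best-studied members share, with the letters searched for in capitals and the bases between them in lower case. On the opposite strand the ERSE reads CGTGG, 9 bases and ATTGG.
Hspa5, chr2:34662022-34662070, plus strand: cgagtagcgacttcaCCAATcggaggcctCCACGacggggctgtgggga
Hsp90b1 distal, chr10:86541487-86541535, minus strand: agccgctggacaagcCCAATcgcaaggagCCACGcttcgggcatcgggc
Hsp90b1 proximal, chr10:86541382-86541430, minus strand: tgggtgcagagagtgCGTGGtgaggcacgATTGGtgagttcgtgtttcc
Pdia6, chr12:17316477-17316525, plus strand: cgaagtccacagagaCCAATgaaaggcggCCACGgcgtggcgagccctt

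The ERSE-II was found in 12 of the same promoters (0.0852%), among them Dnajb11 and Hyou1. The match in Dnajb11 lay just after the start, and those in Hyou1 lay on the opposite strand, where the element reads CGTGG, 1 base and CCAAT.
Dnajb11, chr16:22676593-22676621, plus strand: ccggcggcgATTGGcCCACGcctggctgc
Hyou1 distal, chr9:44290646-44290686, plus strand: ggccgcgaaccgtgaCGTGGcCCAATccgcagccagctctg
Hyou1 proximal, chr9:44290747-44290787, plus strand: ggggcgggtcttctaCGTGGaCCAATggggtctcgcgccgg

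The distal Hyou1 match overlapped the core of the unfolded protein response element, TGACGTGG, which 0.838% of the promoters held. Pdia3, Pdia4, P4hb, Dnajc10 and Dnajb9 had no ERSE, ERSE-II or core of the unfolded protein response element in the window, though all of them but Dnajc10 held CCAAT or CCACG alone. Other holders of the ERSE in the lists described further on were Calr, Canx, Creld2, Dnajc3, Derl3, Ero1b and Syvn1, and the rest were Alg12, Hnrnpa3, Pan2, Ttc41, Xlr3a and Zfp57. Sequences of the lectin chaperones and HSPA5 cofactors among them are shown for comparison with those above.
Calr, chr8:85573689-85573737, minus strand: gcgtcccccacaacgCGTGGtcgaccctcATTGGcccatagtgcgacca
Canx, chr11:50216612-50216660, minus strand: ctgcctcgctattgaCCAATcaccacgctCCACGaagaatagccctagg
Dnajc3, chr14:119175224-119175272, plus strand: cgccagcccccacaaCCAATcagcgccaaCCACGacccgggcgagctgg
Creld2, chr15:88703708-88703756, plus strand: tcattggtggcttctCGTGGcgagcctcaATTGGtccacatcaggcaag

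Per kilobase of canonical mRNA, P4hb was the most abundant of the 10 genes in the control livers with a mean of 429 CPM per kilobase, ahead of Hsp90b1 with 241 and Hspa5 with 148. Pdia3 and Pdia6 followed with 137 and 132. The other 5 genes were lower, from 42.5 for Pdia4 down to 11.1 for Dnajc10. These lengths are those of 1 transcript per gene, so the order rests on that choice.

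Hspa5 (ENSMUSG00000026864, chromosome 2, 34661982 to 34668880, plus strand) encodes the central HSP70 chaperone of the ER. Its level in the control mice was 649, 763, 763 and 760 CPM, and it was 1519 and 1504 CPM in the CCl4 mice. The CCl4 + 4MU mice were at 605, 727, 806 and 627 CPM. Both CCl4 mice therefore lay above every control and every CCl4 + 4MU mouse, whose ranges overlapped. The CCl4 + siHAS2-LNP mice were at 606, 825, 780 and 823 CPM, again below both CCl4 mice. In the CCl4 + siLuc-LNP group the values were 930, 865, 537 and 1517 CPM, so mouse 4 was at the level of the CCl4 mice and mouse 3 was below all controls. Over the 13 mice without CCl4 the range was 489 to 922 CPM, the lowest being siLuc-LNP mouse 1.

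The DNAJ cofactors of HSPA5 differed among themselves. Dnajc10 (ENSMUSG00000027006, chromosome 2, 80145787 to 80184941) encodes ERdj5, a cofactor that also reduces disulfide bonds of misfolded proteins bound for degradation. It was at 42.3, 49.4, 41.1 and 52.6 CPM in the control mice and at 133 and 162 CPM in the CCl4 mice. Its values were 53.9, 55.1, 60.8 and 42.5 CPM with CCl4 + 4MU, and 57.7, 67.4, 59.0 and 54.7 CPM with CCl4 + siHAS2-LNP. All 4 CCl4 + siHAS2-LNP livers thus stayed above the controls, by far less than the CCl4 livers did. With CCl4 + siLuc-LNP it was at 89.4, 53.8, 57.6 and 147 CPM, so that mouse 4 was within the CCl4 range and mouse 1 stood between the groups.

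Dnajb11 (ENSMUSG00000004460, chromosome 16, 22676587 to 22698384) encodes ERdj3, a soluble cofactor that hands unfolded chains to HSPA5. It was at 70.7, 95.9, 83.5 and 71.2 CPM in the control mice and at 138 and 197 CPM in the CCl4 mice. The CCl4 + 4MU livers held 60.5, 79.3, 80.4 and 71.0 CPM and the CCl4 + siHAS2-LNP livers 69.8, 81.8, 85.1 and 72.7 CPM, both within or below the control range. CCl4 + siLuc-LNP livers held 97.6, 81.5, 76.2 and 165 CPM, and again mouse 4 alone reached the CCl4 range.

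Dnajb9 (ENSMUSG00000014905, chromosome 12, 44252341 to 44257171), which encodes ERdj4, a cofactor known as a repressor of IRE1, behaved differently. The control mice were at 40.3, 62.0, 57.6 and 64.9 CPM and the CCl4 mice at 54.6 and 92.8 CPM, so the groups overlapped. CCl4 + 4MU mice were at 43.8, 38.0, 45.6 and 33.8 CPM, all below both CCl4 mice, and CCl4 + siHAS2-LNP mice were at 44.5, 53.7, 53.7 and 44.7 CPM. The CCl4 + siLuc-LNP values spread from 21.4 CPM in mouse 3, the lowest of all 27 livers, through 45.9 and 47.2 CPM to 75.1 CPM in mouse 4.

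Hyou1 (ENSMUSG00000032115, chromosome 9, 44290418 to 44303666) encodes an HSP110-type protein of the ER that exchanges the nucleotide of HSPA5. It was at 130, 131, 113 and 116 CPM in the control mice and at 257 and 326 CPM in the CCl4 mice. It was at 101, 111, 127 and 113 CPM with CCl4 + 4MU and at 90.7, 111, 113 and 127 CPM with CCl4 + siHAS2-LNP. With CCl4 + siLuc-LNP it was at 120, 134, 73.6 and 233 CPM, all below the CCl4 mice. Among livers without CCl4 it ranged from 48.7 CPM in siLuc-LNP mouse 1 to 181 CPM in 4MU mouse 1, the widest relative spread of the 10 genes there.

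Hsp90b1 (ENSMUSG00000020048, chromosome 10, 86526073 to 86541446, minus strand) encodes GRP94, the HSP90 of the ER, whose clients include integrins, Toll-like receptors and insulin-like growth factors. It was at 565, 813, 693 and 651 CPM in the control mice and at 1391 and 1462 CPM in the CCl4 mice. The CCl4 + 4MU mice had 475, 646, 619 and 423 CPM, of which mice 1 and 4 were below every liver without CCl4. The CCl4 + siHAS2-LNP mice had 532, 904, 818 and 735 CPM. The CCl4 + siLuc-LNP mice had 1022, 765, 627 and 1663 CPM, and mouse 4 of that group had the highest Hsp90b1 level of all 27 livers.

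Of the protein disulfide isomerases, Pdia6 (ENSMUSG00000020571, chromosome 12, 17316533 to 17335913), which also binds the IRE1 sensor, separated the groups most clearly. The control mice were at 438, 518, 414 and 394 CPM and the CCl4 mice at 1126 and 987 CPM. CCl4 + 4MU livers were at 448, 555, 605 and 437 CPM and CCl4 + siHAS2-LNP livers at 555, 644, 578 and 503 CPM. CCl4 + siLuc-LNP livers were at 846, 557, 805 and 944 CPM, between the CCl4 livers and the 13 livers without CCl4, whose highest value was 541 CPM.

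Pdia3 (ENSMUSG00000027248, chromosome 2, 121244149 to 121270339) encodes ERp57, which acts on glycoproteins held by calreticulin and calnexin. Its control values of 410, 662, 516 and 426 CPM compared with 910 and 999 CPM in the CCl4 mice. It was at 393, 559, 508 and 349 CPM with CCl4 + 4MU, at 503, 642, 674 and 535 CPM with CCl4 + siHAS2-LNP, and at 753, 568, 632 and 965 CPM with CCl4 + siLuc-LNP. Pdia4 (ENSMUSG00000025823, chromosome 6, 47770077 to 47790462), which encodes ERp72, was at 221, 268, 225 and 220 CPM in the control mice and at 347 and 456 CPM in the CCl4 mice. It was at 179, 242, 210 and 169 CPM with CCl4 + 4MU, at 204, 244, 254 and 250 CPM with CCl4 + siHAS2-LNP, and at 302, 257, 233 and 398 CPM with CCl4 + siLuc-LNP. In both genes the CCl4 livers were above the control, CCl4 + 4MU and CCl4 + siHAS2-LNP livers without overlap, and CCl4 + siLuc-LNP mouse 4 reached them.

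P4hb (ENSMUSG00000025130, chromosome 11, 120451122 to 120464538, minus strand) encodes PDI itself, which is also the beta subunit of the collagen prolyl 4-hydroxylases and a subunit of the microsomal triglyceride transfer protein. The control mice were at 1183, 1381, 1195 and 1284 CPM and the CCl4 mice at 2205 and 2035 CPM. CCl4 + 4MU mice were at 1218, 1580, 1421 and 1402 CPM and CCl4 + siHAS2-LNP mice at 1661, 1437, 1344 and 1288 CPM. The order within the CCl4 + siLuc-LNP group was not that of the other chaperones, since mouse 3 was highest with 2017 CPM and mice 1, 2 and 4 were at 1426, 1463 and 1525 CPM. The siLuc-LNP mice without CCl4 were at 933, 992 and 941 CPM, below every mouse of every other group.

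**Figure D1:**
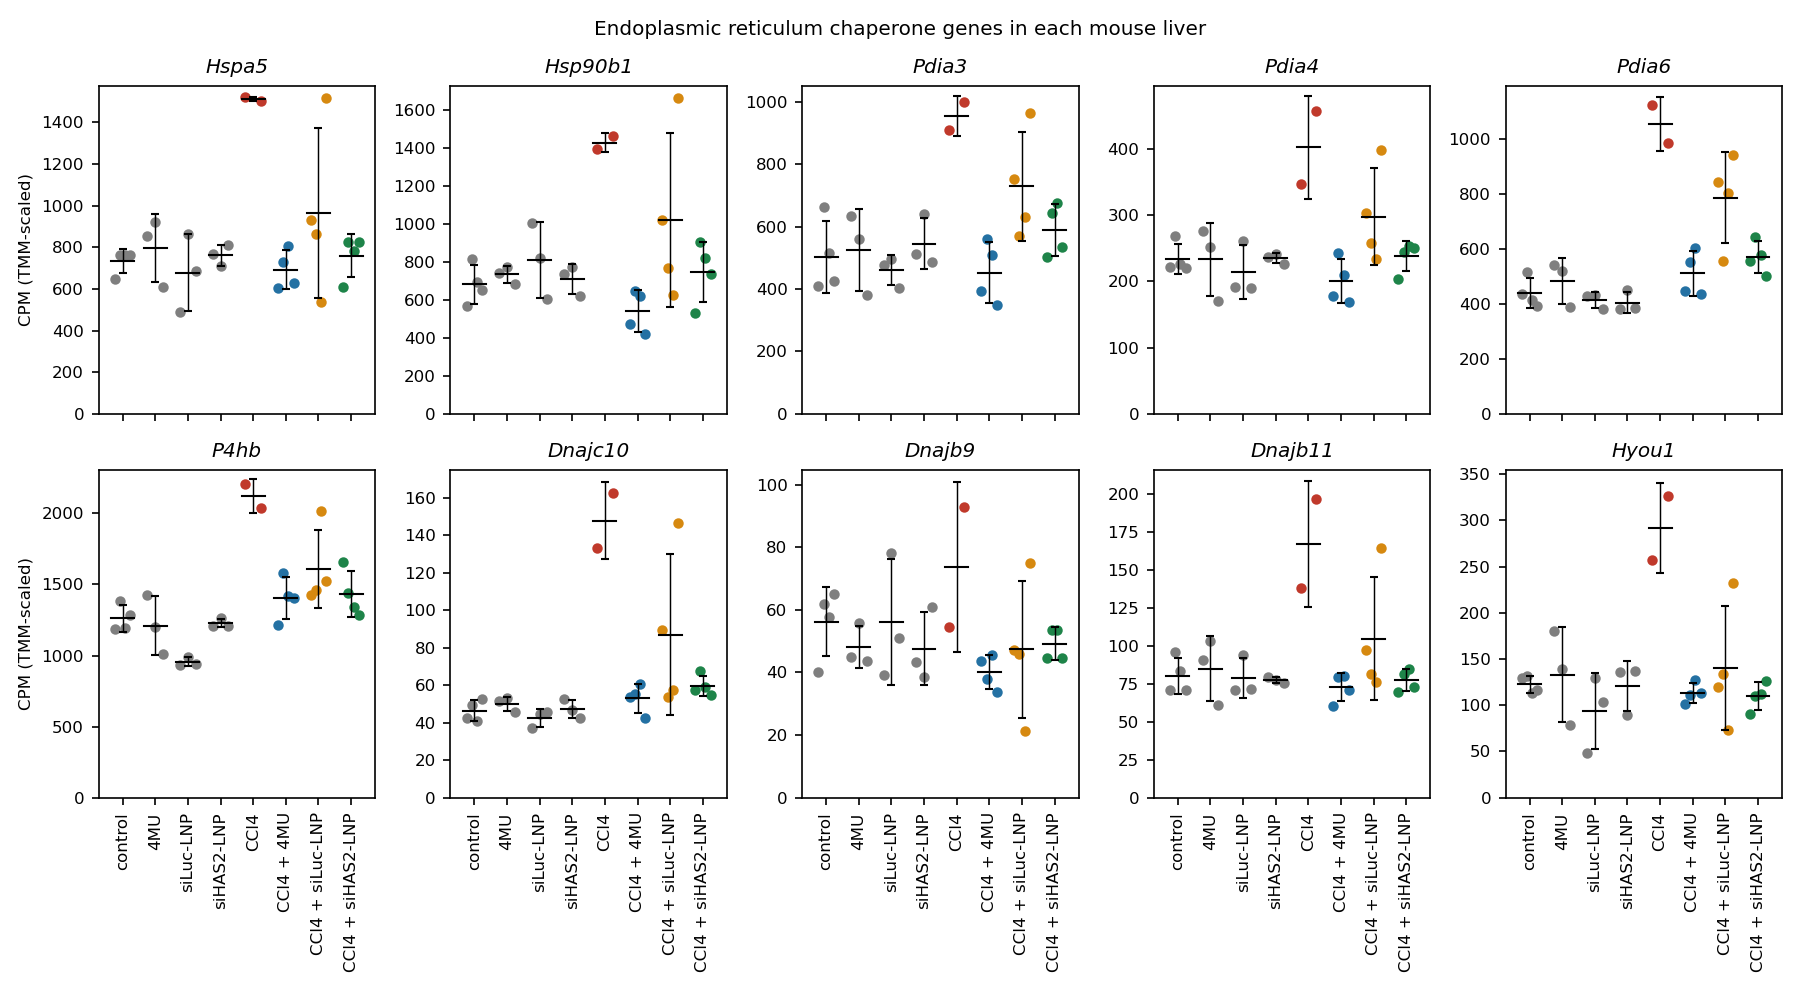
CPM (TMM-scaled, vertical axis from 0) of the 10 chaperone genes in each of the 27 livers, by group; points are mice, horizontal bars are group means and error bars 1 SD. The red points of the CCl4 mice are highest as a group in all 10 panels, the orange CCl4 + siLuc-LNP points spread most, and the blue (CCl4 + 4MU) and green (CCl4 + siHAS2-LNP) points lie near the grey points of the mice without CCl4.

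In each of the 10 genes the CCl4 group had the highest mean of the 8 groups. CCl4 + siLuc-LNP came next in 9 of them, the exception being Dnajb9, where control came next. The CCl4 and CCl4 + siLuc-LNP mice did not overlap in Pdia6, P4hb and Hyou1. Further down the order neighbouring groups overlapped in every gene, apart from 4MU and siLuc-LNP in P4hb.

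Summed over the 10 genes, the chaperones took 0.383% ± 0.0373 (SD, n = 4) of all counts in the control mice and 0.911% and 1.09% in the CCl4 mice. The share was 0.396% ± 0.0505 (SD, n = 4) with CCl4 + 4MU and 0.502% ± 0.0575 (SD, n = 4) with CCl4 + siHAS2-LNP. With CCl4 + siLuc-LNP it was 0.632%, 0.485%, 0.414% and 0.915%. Hence a single liver of that group matched the CCl4 livers and a second lay between, while the other two were within the range of the CCl4 + siHAS2-LNP livers or below it. The groups without CCl4 ranged from 0.331% to 0.483%, both in 4MU mice.

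**Figure D2:**
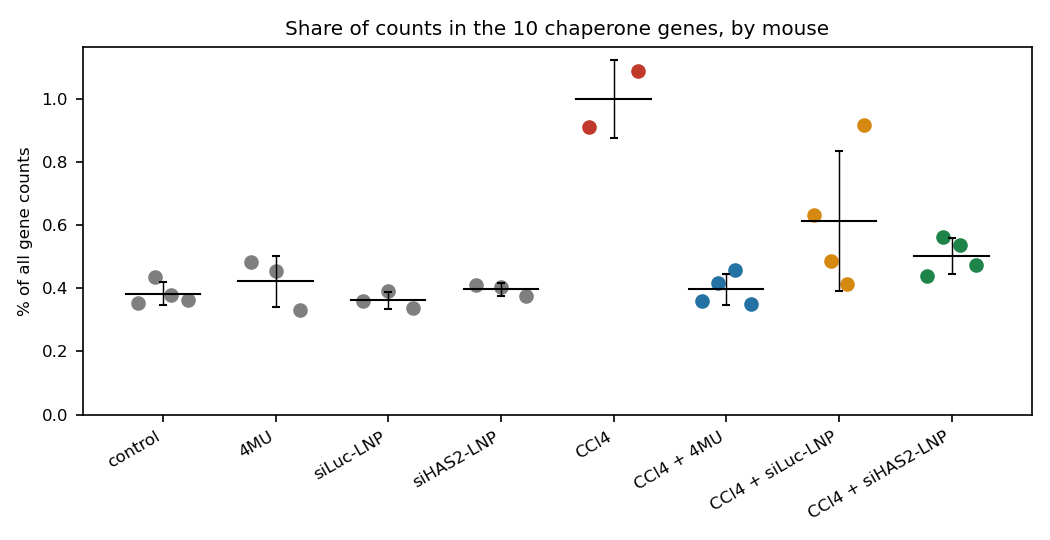
Percent of all gene counts that fell on the 10 chaperone genes (vertical axis, from 0) in each liver, by group; points are mice, horizontal bars are means and error bars 1 SD. The CCl4 mice lie at 0.911% and 1.09%, CCl4 + siLuc-LNP mouse 4 at 0.915%, and no other liver is above 0.632%.

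In CCl4 mice, 9 of the 10 chaperones were higher than in control mice and none was lower, against 18.0% of all tested genes that were higher. The comparison asks what CCl4 alone does to the liver. Dnajc10 rose most, with a log2 fold change of 1.67 ± 0.24 (SE, adjusted p = 1.2e-05), followed by Pdia6 (1.26 ± 0.19, adjusted p = 1.42e-05) and Hyou1 (1.25 ± 0.33, adjusted p = 0.00533). Hsp90b1 rose by 1.07 ± 0.27 (adjusted p = 0.00425), Dnajb11 by 1.06 ± 0.24 (adjusted p = 0.00125) and Hspa5 by 1.04 ± 0.26 (adjusted p = 0.0033). The increases of Pdia3 (0.92), Pdia4 (0.78) and P4hb (0.75) were smaller, with adjusted p-values of 0.00377, 0.00502 and 0.00124. Dnajb9 did not pass the threshold (0.39 ± 0.32, adjusted p = 0.353). The median over the 10 genes was 1.05, and that over all tested genes was -0.02.

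The mice of the CCl4 and control groups did not overlap in 9 of the 10 genes, and 25.7% of all tested genes were likewise higher without overlap. Leaving out CCl4 mouse 2 left 6 genes past the threshold, with 1 CCl4 mouse whose spread was then assumed to equal that of the other groups. Pdia4 (0.60, adjusted p = 0.122), Dnajb11 (0.80, adjusted p = 0.0653) and Hyou1 (1.09, adjusted p = 0.0772) were lost, and the value of Dnajb9 turned to -0.02. With library totals in place of TMM the median of all genes moved to 0.39 and that of the chaperones to 1.47, so the difference between them was similar.

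Markers of other cells moved in the same comparison. Of the stellate cell and myofibroblast markers 6 of 7 were higher, and their summed level was 49.5 to 92.0 CPM in control and 557 to 935 CPM in CCl4 mice. All 4 markers of dividing cells were higher (5.19 to 10.03 against 244 to 508 CPM), as were 5 of 6 of monocytes and macrophages (63.0 to 125 against 192 to 254 CPM) and 2 of 5 of ductal cells (34.4 to 77.0 against 241 to 297 CPM). Hepatocyte markers, the defining genes of the tissue, summed to 160300 to 198900 CPM in control and 73960 to 130000 CPM in CCl4 mice, with 3 of 7 lower. Of the markers of plasma cells, which hold much ER, 3 of 4 were lower and Prdm1 did not pass (0.52, adjusted p = 0.357), their sum was 52.4 to 65.0 CPM in control and 19.7 to 20.9 CPM in CCl4 mice, and Tnfrsf17 was at 0 in both CCl4 mice. Of the markers of endothelium 2 of 4 were higher and 1 lower, of Kupffer cells 1 of 5 higher and 1 lower, of B cells 1 of 4 lower, and of T cells none of 4 passed. The part of these cells in the chaperone levels was not tested.

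With CCl4 + 4MU, 9 of the 10 chaperones were lower than with CCl4 alone, against 10% of all tested genes, and none was higher. The comparison asks how livers given CCl4 differ when 4MU was begun before the first CCl4 injection. The direction of the genes in the study's own list is not independent evidence here or for CCl4 + siHAS2-LNP. Dnajc10 fell by 1.48 ± 0.24 on the log2 scale (SE, adjusted p = 0.000706), Hsp90b1 by 1.40 ± 0.27 (adjusted p = 0.00177) and Hyou1 by 1.37 ± 0.33 (adjusted p = 0.00713). Dnajb11 fell by 1.2 (adjusted p = 0.00177), Hspa5 by 1.13 (adjusted p = 0.00509) and Pdia3 by 1.08 (adjusted p = 0.00343). Pdia6 and Pdia4 fell by 1.05 and 1.01 (adjusted p = 0.00102 and 0.00223). P4hb fell least, by 0.59 ± 0.17 (adjusted p = 0.0166), and Dnajb9 (-0.87 ± 0.31, adjusted p = 0.0519) just missed the threshold. The median was -1.10 for the chaperones and 0.04 for all tested genes.

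All 10 genes were higher in both CCl4 mice than in every CCl4 + 4MU mouse, as were 21.5% of all tested genes. Without CCl4 mouse 2 only Hsp90b1, Pdia6 and Dnajc10 passed the threshold, and the changes of the others kept their sign, Hspa5 for instance at -1.17 (adjusted p = 0.0654). P4hb was also lost without CCl4 mouse 1 (adjusted p = 0.0718), when no genes were filtered out (0.140) and when the model held just those groups (0.0669), whereas DESeq2 also called Dnajb9 (adjusted p = 0.0324). Beside this result, all 4 markers of dividing cells were lower (37.4 to 167 CPM) and 3 of 7 hepatocyte markers higher (150100 to 179300 CPM in sum). None of 7 stellate cell markers passed the threshold (178 to 570 CPM), though all 7 values were negative. Col1a2 (-1.27, adjusted p = 0.0593) and Col1a1 (-1.41, adjusted p = 0.0606) came nearest. Of plasma cell markers 1 of 4 was higher (Igkc, 1.36, adjusted p = 0.00572), and 1 of 6 monocyte and macrophage markers was lower (Ccr2, -1.16, adjusted p = 0.0414). The part of these cells was not tested.

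With CCl4 + siHAS2-LNP, 9 of the 10 chaperones were lower than with CCl4 alone, against 7.33% of all tested genes. Hyou1 fell by 1.41 ± 0.33 (SE, adjusted p = 0.00764), Dnajc10 by 1.31 ± 0.25 (adjusted p = 0.00189) and Dnajb11 by 1.11 ± 0.24 (adjusted p = 0.00396) on the log2 scale. Hspa5 (-0.99), Hsp90b1 (-0.93) and Pdia6 (-0.89) had adjusted p-values of 0.0134, 0.0259 and 0.00396. Pdia4 (-0.76), Pdia3 (-0.70) and P4hb (-0.57) had smaller changes, with adjusted p-values of 0.0173, 0.0475 and 0.026. Dnajb9 did not pass it (-0.58 ± 0.31, adjusted p = 0.216). This comparison and the previous one use the same 2 CCl4 mice, and so does the next.

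Without CCl4 mouse 2 a single gene, Pdia6, remained past the threshold, and without CCl4 mouse 1 there were 6. All 10 genes were nevertheless higher in both CCl4 mice than in every CCl4 + siHAS2-LNP mouse, a property shared by 18.8% of tested genes. With limma-voom Hsp90b1, Pdia3 and Pdia4 missed the threshold (adjusted p = 0.0542, 0.119 and 0.056). Markers of stellate cells (4 of 7 lower, 215 to 361 CPM in sum), of dividing cells (2 of 4 lower, 122 to 144 CPM) and of Kupffer cells (4 of 5 lower, 242 to 268 CPM with CCl4 and 89.2 to 124 CPM here) were lower too, as were 2 of 4 of endothelium, 1 of 6 of monocytes and macrophages and 1 of 5 of ductal cells, and their part in the chaperone levels was not tested.

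With CCl4 + siLuc-LNP, none of the 10 chaperones passed the threshold against CCl4 alone by edgeR, where 0.191% of all tested genes were lower. All 10 values were negative, with a median of -0.56, from -0.39 for Pdia3 to -1.06 for Hyou1 (adjusted p = 0.139). At an unadjusted p under 0.05 there were 7 genes, against 2001 of all 14114 tested genes in either direction. DESeq2 called none and limma-voom called Dnajc10 (adjusted p = 0.0416). The result turned on 1 liver: without CCl4 + siLuc-LNP mouse 4, edgeR called 5 genes lower, namely Hspa5 (-0.96, adjusted p = 0.0138), Hsp90b1 (-0.82, adjusted p = 0.0392), Dnajc10 (-1.14, adjusted p = 0.00132), Dnajb11 (-0.97, adjusted p = 0.00519) and Hyou1 (-1.41, adjusted p = 0.00788). The share of all tested genes called lower in that fit is not given here, so the 5 cannot be set against it. With every liver kept, the CCl4 mice were above all CCl4 + siLuc-LNP mice in 3 genes, against 7.33% of tested genes.

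Between CCl4 + siHAS2-LNP and CCl4 + siLuc-LNP, which differ only in the sequence of the siRNA, no chaperone passed the threshold by edgeR, DESeq2 or limma-voom, where edgeR called 1.09% of all tested genes in either direction. Pdia6 came nearest with -0.47 ± 0.16 (SE, adjusted p = 0.133, 95% interval -0.79 to -0.14), followed by Dnajc10 with -0.54 ± 0.21 (adjusted p = 0.181). At an unadjusted p under 0.05 there were 3 genes, these and Dnajb11, against 2349 of all 14114 tested genes in either direction. The values were negative in 9 genes and positive in 1, Dnajb9 (0.05), which turned negative when either CCl4 + siHAS2-LNP mouse 2 or 3 or CCl4 + siLuc-LNP mouse 3 was left out. In none of the 10 genes were all CCl4 + siLuc-LNP mice above all CCl4 + siHAS2-LNP mice, against 3.52% of tested genes. The interval for Hspa5 was -0.79 to 0.11.

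Between CCl4 + 4MU and CCl4 + siHAS2-LNP none passed the threshold by edgeR, DESeq2 or limma-voom, and none had an unadjusted p under 0.05, where edgeR called 1.22% of all tested genes. Hsp90b1 differed most (-0.47 ± 0.23, adjusted p = 0.279) and P4hb (-0.03) and Hyou1 (0.04) least.

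**Figure D3:**
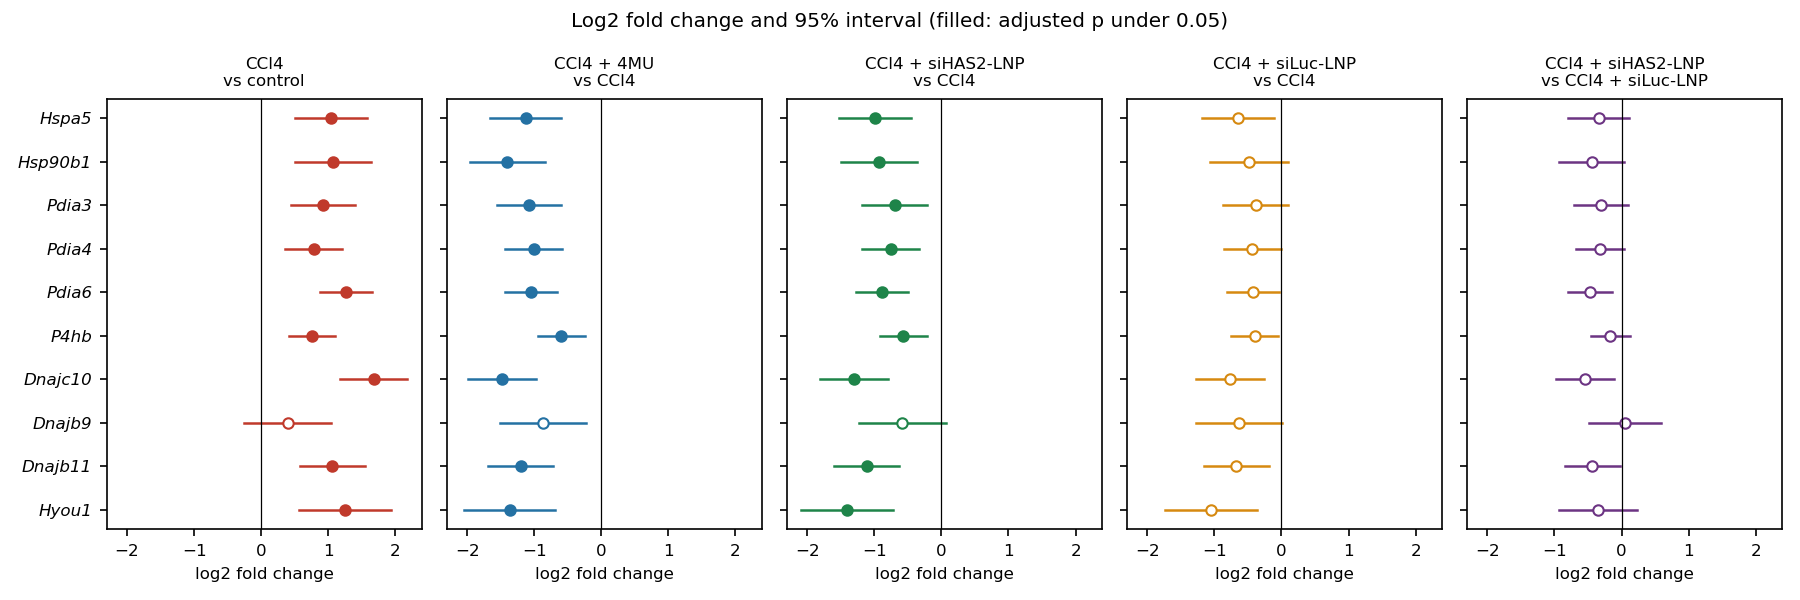
Log2 fold change (horizontal axis, points) with its 95% interval (lines) of each chaperone gene in 5 comparisons from edgeR; filled points have an adjusted p under 0.05. In 9 genes points are filled on the right for CCl4 against control and on the left for CCl4 + 4MU and CCl4 + siHAS2-LNP against CCl4, with Dnajb9 open in each, and all points are open in the comparisons with CCl4 + siLuc-LNP.

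In mice without CCl4 none of these genes passed the threshold in the comparisons made, which did not include siHAS2-LNP against control. For 4MU against control no gene was called by edgeR, DESeq2 or limma-voom and none had an unadjusted p under 0.05, with 0.00709% of all tested genes called, and values between -0.22 (Dnajb9) and 0.14 (Pdia6). For siLuc-LNP against control none was called by any of these tools, with 0.213% of all tested genes called by edgeR, and P4hb, at -0.40 ± 0.15 (SE, adjusted p = 0.554), was the 1 gene with an unadjusted p under 0.05. For siHAS2-LNP against siLuc-LNP none was called either, with 0.0425% of all tested genes called by edgeR, and P4hb was again the 1 gene at an unadjusted p under 0.05 (0.36 ± 0.16, adjusted p = 0.503). Both P4hb values use the siLuc-LNP mice, which were the lowest for this gene.

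The effect of CCl4 was also measured within each arm. With siLuc-LNP, 4 chaperones were higher in the CCl4 livers, Dnajc10 by 1.04 ± 0.23 (SE, adjusted p = 0.00194), Pdia6 by 0.93 ± 0.17 (adjusted p = 0.000384), P4hb by 0.75 ± 0.15 (adjusted p = 0.000833) and Pdia3 by 0.67 ± 0.22 (adjusted p = 0.0257) on the log2 scale, against 13% of all tested genes. Leaving out CCl4 + siLuc-LNP mouse 3 raised the count to 7, and in a fit with only these 2 groups 1 gene, Pdia6, remained. With siHAS2-LNP none was called by edgeR, and 1 each by DESeq2 and limma-voom, against 12.8% of all tested genes, with Pdia6 nearest (0.49 ± 0.17, adjusted p = 0.0611) and the only gene at an unadjusted p under 0.05. With 4MU none was called by edgeR, DESeq2 or limma-voom and none had an unadjusted p under 0.05, against 23.7% of all tested genes called in either direction. Of the 10 values 7 were negative, down to -0.44 for Hsp90b1.

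Over the 4 CCl4 groups against the 4 groups without CCl4, each weighted equally, 7 chaperones were higher, against 26.3% of all tested genes. Dnajc10 (0.78 ± 0.12, adjusted p = 5.06e-06), Pdia6 (0.69 ± 0.09, adjusted p = 5.68e-07) and P4hb (0.48 ± 0.08, adjusted p = 1.38e-05) led, and Hspa5, Pdia3, Pdia4 and Dnajb11 rose by 0.26 to 0.37. Hsp90b1 (0.26, adjusted p = 0.0949), Hyou1 (0.36, adjusted p = 0.0546) and Dnajb9 (-0.01, adjusted p = 0.946) did not pass the threshold. As 14 against 13 mice in 2 groups there were 4, since Hspa5 (adjusted p = 0.12), Pdia4 (0.145) and Dnajb11 (0.149) were lost. Of the 14 mice given CCl4, the CCl4 + 4MU livers had at most 646 CPM of Hsp90b1, under the median of 735 CPM in the livers without CCl4.

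Whether 4MU acted differently with and without CCl4 was tested by an interaction. For 7 of the 10 genes the change with 4MU was lower in CCl4 mice, against 2.95% of all tested genes. The interaction was -1.59 for Dnajc10 (adjusted p = 0.0127), -1.51 for Hsp90b1 (0.0282), -1.29 for Dnajb11 (0.0284), -1.24 for Hspa5 (0.0392), -1.18 for Pdia6 (0.0139), -1.14 for Pdia3 (0.0375) and -1.01 for Pdia4 (0.0374). Hyou1 (-1.48, adjusted p = 0.0508), P4hb (-0.54, adjusted p = 0.139) and Dnajb9 (-0.65, adjusted p = 0.339) did not pass. The count was 0 without CCl4 mouse 2, it was 2 without 4MU mouse 2, CCl4 + 4MU mouse 1 or CCl4 + 4MU mouse 4, and it was 4 without 4MU mouse 1, control mouse 1 or control mouse 4.

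For siHAS2-LNP the interaction passed for Dnajc10 (-1.33, adjusted p = 0.0194) and Dnajb11 (-1.06, adjusted p = 0.0462), against 3.07% of all tested genes that were lower. DESeq2 called 5 genes. None was left without CCl4 mouse 2 or siHAS2-LNP mouse 1, and 1 was left without any single mouse of the other siHAS2-LNP mice, of the CCl4 + siHAS2-LNP group, or without control mouse 1, 3 or 4. For siLuc-LNP the interaction passed for no gene by edgeR, DESeq2 or limma-voom and at no unadjusted p under 0.05, where edgeR called 0.00709% of all tested genes, and 1 gene was called without CCl4 + siLuc-LNP mouse 4.

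Seen mouse by mouse, most of the chaperones were high or low in the same livers. In CCl4 mice 1 and 2 the median of the 10 genes was 0.96 and 1.08 above the control mean on the log2 scale. It was 1.01 in CCl4 + siLuc-LNP mouse 4, where all 10 genes exceeded every control and 7 reached at least the lower of the CCl4 mice, and it was 0.36 in mouse 1 of that group. In CCl4 + siLuc-LNP mouse 3 it was -0.03, with Pdia6 and P4hb raised and Dnajb9 and Hyou1 lowered. The 8 livers of CCl4 + 4MU and CCl4 + siHAS2-LNP mice had medians between -0.30 and 0.18, and none of their values reached the lower CCl4 mouse in any of the 10 genes. Hepatocyte markers summed to 106800 CPM in CCl4 + siLuc-LNP mouse 4, against 121000 to 152900 CPM in the other mice of the group, markers of dividing cells to 422 CPM against 125 to 214 CPM, and TMM factors were 1.13 and 1.32 in the CCl4 mice, 1.2 in that mouse and 0.82 to 1.13 elsewhere. What these had to do with its chaperone levels was not tested.

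**Figure D4:**
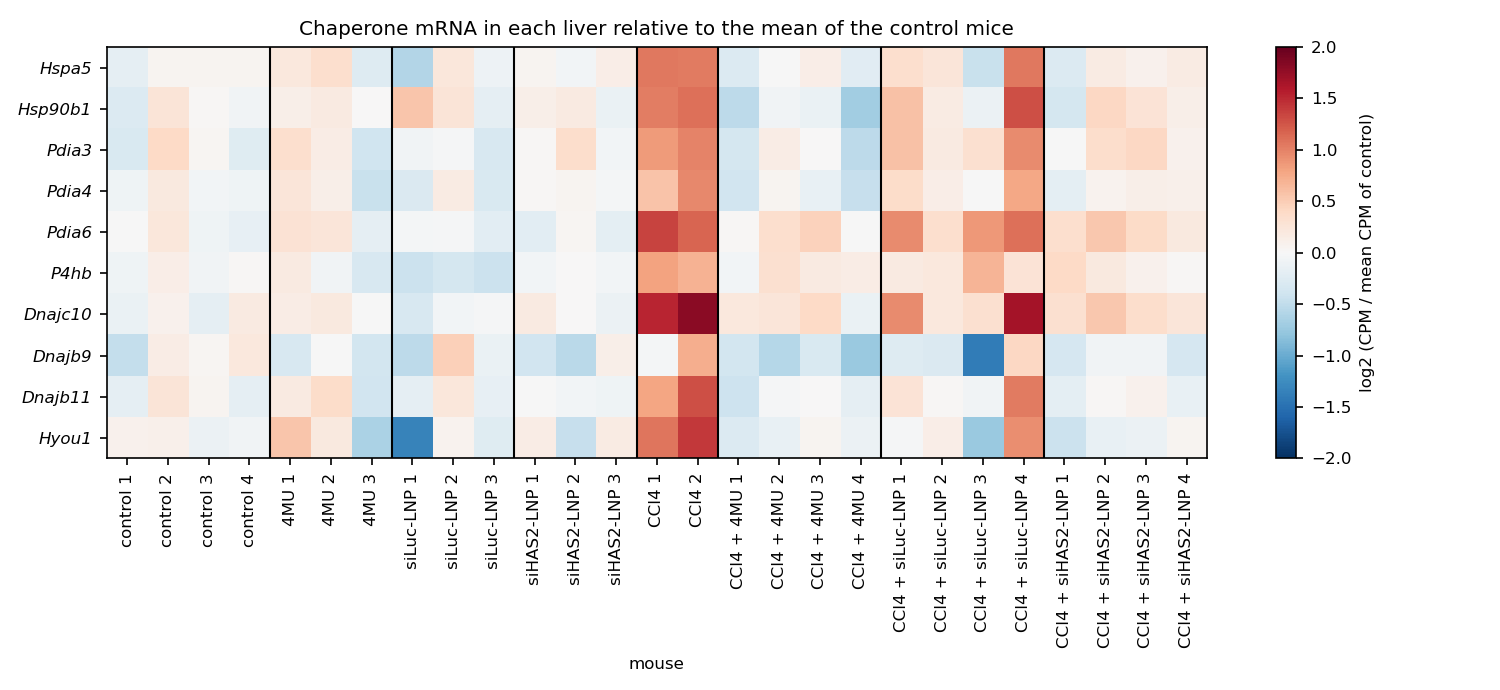
Log2 ratio of CPM to the mean of the control mice (colour, red higher and blue lower) for the 10 chaperone genes (rows) in the 27 livers (columns, black lines between groups). The columns of CCl4 mice 1 and 2 and of CCl4 + siLuc-LNP mouse 4 are red in nearly all rows, Dnajb9 in CCl4 mouse 1 being near 0, and CCl4 + siLuc-LNP mouse 3 is red for Pdia6 and P4hb and blue for Dnajb9 and Hyou1.

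How closely each gene followed the other 9 was described by Pearson's r of log2 CPM over the 27 livers after the mean of each group was subtracted, so that only differences between mice of a group counted. The livers share library depth and scaling, and no test was made. Dnajb11 (r = 0.93), Pdia4 (0.92), Pdia3 (0.82) and Hspa5 (0.81) followed the rest most closely. Dnajc10 (0.77), Hsp90b1 (0.73), Hyou1 (0.67), Pdia6 (0.65) and Dnajb9 (0.62) came after them. P4hb followed them least within groups (0.03, and 0.23 by Spearman's correlation of ranks). Over all 27 livers without subtracting group means its r was 0.59.

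Among genes outside the 10, Dnajc3 had the profile most like their mean within groups (r = 0.94). It was 0.91 without the 2 livers in which that mean lay farthest from its average over all livers. Dnajc3 encodes p58IPK, another DNAJ cofactor of HSPA5. Sorbs2 (0.91), Hnrnpa3 (0.90), Slx4ip and Ly75 (0.87 each), Stt3a (0.87), Asph (0.86), Ssr1 and Scfd1 (0.85 each) and Spcs3 (0.84) followed. Stt3a encodes a catalytic subunit of oligosaccharyltransferase, Spcs3 a subunit of signal peptidase and Ssr1 a subunit of the translocon-associated complex. Over all livers, group differences included, the most alike included Scfd1 (0.94), Ssr1 (0.94), Kpnb1 (0.93), Hnrnpa3 (0.93), Serp1 (0.92), Ssr3 (0.92), Anp32e (0.92), Ddx1 (0.91) and Yipf5 (0.90).

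The neighbouring machinery of the ER was read from 9 lists of genes. The counts of each list stand against 18.0% of all tested genes higher and 2269 of 14114 lower in CCl4 than in control mice. Relative to CCl4, 10% of all tested genes were lower with CCl4 + 4MU and 7.33% with CCl4 + siHAS2-LNP. Some of their genes, Calr, Uggt1, Dnajc3, Manf, Sdf2l1, Sec61a1 and Fkbp10, also stand in the study's own lists drawn from these livers, so the lists are not independent evidence of direction. The lectin chaperones and glycoprotein folding enzymes were higher in CCl4 than in control mice in 5 of 6 genes, with a median log2 fold change of 0.53 against -0.02 over all tested genes. Uggt1, the folding sensor that marks misfolded glycoproteins, rose most (0.99, adjusted p = 0.000623), then Calr (0.57, adjusted p = 0.0282), Canx (0.56, adjusted p = 0.0277) and Ganab (0.49, adjusted p = 0.027). Calr was at 716 to 990 CPM in control and at 1097 and 1454 CPM in CCl4 mice, and the log2 fold changes of Calr and Canx were below the 0.92 of their partner Pdia3, a difference that was not tested. With CCl4 + 4MU 4 of 6 were lower than with CCl4, and with CCl4 + siHAS2-LNP 3 of 6.

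Among 8 HSPA5 cofactors and other soluble folding factors, 3 were higher and 1 lower in CCl4 mice, against 18.0% of all tested genes higher and 2269 of 14114 lower. Creld2 (1.48, adjusted p = 0.000137), Sdf2l1 (1.34, adjusted p = 0.00074) and Manf (1.03, adjusted p = 0.0121), small secreted or ER-resident proteins known as targets of the unfolded protein response, rose, and Cnpy2 fell (-0.69, adjusted p = 0.00655). Creld2 was at 26.0 to 38.9 CPM in control and at 70.7 and 108 CPM in CCl4 mice, and at 23.5 to 28.5 CPM with CCl4 + siHAS2-LNP. Relative to CCl4, these 3 and Dnajc3 were lower with CCl4 + 4MU and with CCl4 + siHAS2-LNP, Creld2 by 1.42 and 1.75 on the log2 scale (adjusted p = 0.00133 and 0.00051).

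Of 9 other disulfide enzymes and oxidases 5 were higher in CCl4 mice, led by the oxidase Ero1a (0.93, adjusted p = 0.00639) and by Txndc5 (0.75, adjusted p = 0.00434), with a median of 0.49. Prdx4 (-0.05) and Pdia5 (0.01) showed no change past the threshold (adjusted p = 0.873 and 0.98). With CCl4 + 4MU 4 of these 9 and with CCl4 + siHAS2-LNP 3 were lower than with CCl4. Of 8 translocon genes 6 were higher, Sec61a1 by 1.35 (adjusted p = 0.00208), Ssr1 by 1.33 (adjusted p = 3.23e-05) and Ssr3 by 1.14 (adjusted p = 0.000799), and 5 and 4 were lower with CCl4 + 4MU and CCl4 + siHAS2-LNP.

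Of 8 partners of P4HB and collagen folding proteins 6 were higher in CCl4 mice. Fkbp10 (3.24, adjusted p = 4.3e-06) and Serpinh1 (2.43, adjusted p = 2.34e-06), the collagen chaperone HSP47, exceeded all 10 chaperones in log2 fold change, though at low levels, Serpinh1 at 6.96 to 12.2 CPM in control and at 33.8 and 69.7 CPM in CCl4 mice. P3h1 (1.06) and Crtap (0.96) of the prolyl 3-hydroxylase complex also rose. With CCl4 + 4MU 5 and with CCl4 + siHAS2-LNP 4 of the 8 were lower, Serpinh1 by 1.18 and 1.29 (adjusted p = 0.0117 and 0.00884). Of the 7 markers of stellate cells, in which such genes are known to be expressed, 6 were higher in CCl4 than in control mice. Relative to CCl4, none of the 7 passed the threshold with CCl4 + 4MU, though all had negative values, and 4 were lower with CCl4 + siHAS2-LNP.

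The sensors of the unfolded protein response did not move in the same way. None of 7 sensors and transducers passed the threshold in CCl4 against control, with a median of 0.11. Xbp1 was at 174 to 243 CPM in control and at 166 and 182 CPM in CCl4 mice (-0.24, adjusted p = 0.3), Atf6 had a value of -0.19, Ern1 of 0.11 and Eif2ak3 of 0.06. These are levels of whole transcripts, and the spliced form of Xbp1 and the cleavage of ATF6 cannot be read from gene counts. None of the 7 passed in either treatment comparison, and over the 4 CCl4 groups 1, the ATF6 protease Mbtps1, was higher (0.33, adjusted p = 0.000848).

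In the PERK and ATF4 branch, 2 of 7 genes were higher and 1 lower in CCl4 mice. Of all tested genes 18.0% were higher and 2269 of 14114 lower. Asns (2.66, adjusted p = 0.00589) and Atf3 (2.02, adjusted p = 0.000313) rose and Ppp1r15a fell (-0.79, adjusted p = 0.0435), while Ddit3 (-0.58) and Chac1 (-1.06), known targets of ATF4, had negative values that did not pass (adjusted p = 0.25 and 0.248). With CCl4 + 4MU none of the 7 was lower than with CCl4 and 2 were higher, Chac1 by 2.4 (adjusted p = 0.0227) and Ppp1r15a by 0.89 (adjusted p = 0.0399), the direction opposite to that of the 9 chaperones. Of all 14114 tested genes, 1168 were higher with CCl4 + 4MU than with CCl4. Chac1 was at 1.17 and 2.24 CPM in CCl4 and at 2.92 to 14.8 CPM in CCl4 + 4MU mice. The median of the list was 0.82, and with CCl4 + siHAS2-LNP none of the 7 passed the threshold.

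Of 12 genes of ER-associated degradation 3 were higher and 1 lower in CCl4 mice, against 18.0% of all tested genes higher and 2269 of 14114 lower. Edem3 (0.80, adjusted p = 0.0259) and Edem2 (0.57, adjusted p = 0.00493), which trim mannose from misfolded glycoproteins, rose, Derl1 rose by 0.36 (adjusted p = 0.0347) and Derl2 fell (-0.61, adjusted p = 0.0326), while Herpud1 had a value of -0.75 (adjusted p = 0.18). With CCl4 + 4MU 3 and with CCl4 + siHAS2-LNP 2 were lower than with CCl4. Of the chaperones outside the ER, 3 of 10 tested cytosolic and mitochondrial genes were higher in CCl4 mice, Hsp90aa1 by 1.49 (adjusted p = 0.000368), Hspd1 by 0.80 (adjusted p = 0.000986) and Hspa9 by 0.52 (adjusted p = 0.00902), and the heat shock genes Hspa8 (-0.26), Hspa1b (-0.57) and Dnajb1 (0.07) did not pass. These, and Prdx4, Pdia5, Ddit3 and Herpud1 above, were named after their values were seen. With each treatment 3 of the 10 cytosolic and mitochondrial genes were lower than with CCl4. Of all tested genes 10% were lower with CCl4 + 4MU and 7.33% with CCl4 + siHAS2-LNP.

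**Figure D5:**
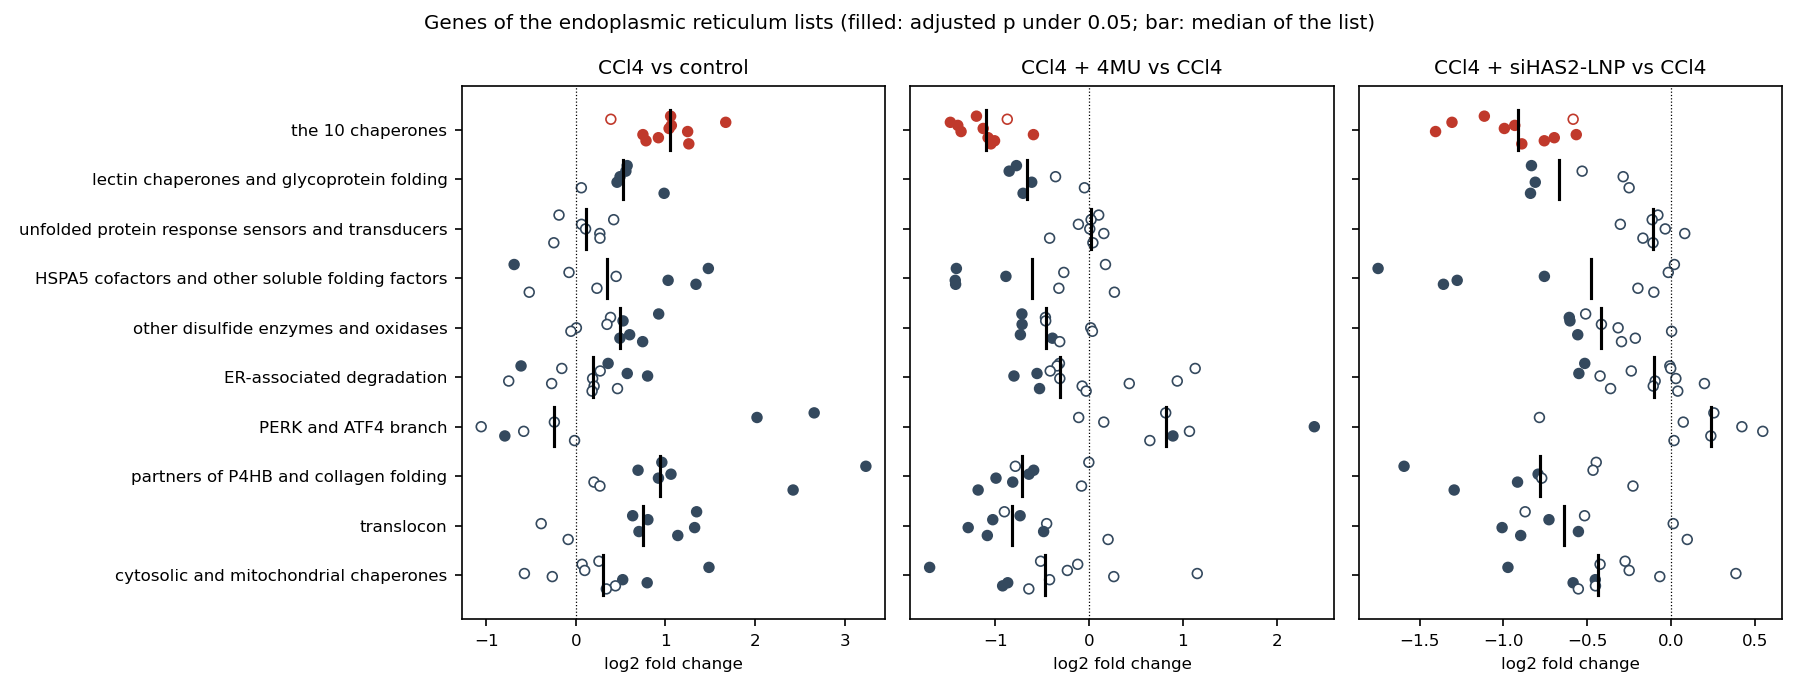
Log2 fold change (horizontal axis) of the 10 chaperones (red) and of the genes of 9 lists (dark blue), 1 point a gene, in CCl4 against control, CCl4 + 4MU against CCl4 and CCl4 + siHAS2-LNP against CCl4; filled points have an adjusted p under 0.05 and black bars are medians. The medians of the chaperones are 1.05, -1.10 and -0.91, those of the sensors lie near 0, and that of the PERK and ATF4 branch is -0.24, 0.82 and 0.24.

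Of the 16 tested genes with an ERSE, 3 are members, 7 stand in the lists above and 6 in neither. Of these 16, 8 were higher and none lower in CCl4 than in control mice, with a median of 0.51. Of all tested genes 18.0% were higher and 2269 of 14114 lower. Members and lists were chosen with earlier results known, so the count largely repeats genes reported above and is not independent evidence on the element. Of the 12 with an ERSE-II, 4 were higher and 2 lower, with a median of -0.17. The 8 higher genes with an ERSE, named after their values were seen, included Hspa5, Hsp90b1, Pdia6, Calr, Canx and Creld2. The others of the 8 were Hnrnpa3 (1.11, adjusted p = 0.000871) and Zfp57 (1.82, adjusted p = 0.0175). With CCl4 + 4MU 8 of the 16 and with CCl4 + siHAS2-LNP also 8 were lower than with CCl4, and in the latter 2 were higher, Pan2 (0.74, adjusted p = 0.0232) and Ttc41 (1.31, adjusted p = 0.0186). Of the 12 with an ERSE-II, 4 were lower and 1 higher with CCl4 + 4MU (median 0.19), and 4 were lower and none higher with CCl4 + siHAS2-LNP (median -0.09). Of all tested genes 10% were lower and 1168 of 14114 higher with CCl4 + 4MU, and 7.33% lower and 1003 higher with CCl4 + siHAS2-LNP. Hnrnpa3, a nuclear RNA-binding protein, is 1 of the 10 genes most like the chaperones within groups. Dnajc10, with the largest change of the 10 chaperones, had none of the elements in its window, and Dnajb11 and Hyou1 carry the ERSE-II, so the members with and without a match were both among those that rose.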

How the data were processed

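Poly(A) RNA from the livers of 27 mice was sequenced (NEBNext Ultra II Directional libraries, NextSeq500). The authors trimmed reads with Trimmomatic 0.39, aligned them with HISAT2 (version not given in the sources used here) to GRCm39 with Ensembl release 105, and deposited gene counts from featureCounts, paired-end and without multi-mapping reads. The strand setting was not stated, so reads of overlapping genes on opposite strands may be shared. The authors used R 3.4.2 and DESeq2 for their own tests.

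From the deposited counts, 14114 of 55414 genes were kept, those averaging 10 or more counts over the libraries. CPM were scaled by TMM. All 8 groups were fitted together in edgeR 4.0.16 (quasi-likelihood, R 4.3.3) with Benjamini-Hochberg adjustment and a threshold of 0.05, after the procedure was tested on simulated data. Alternatives used DESeq2 1.42.0, limma 3.58.1 (voom with quality weights), other scalings, filters and groupings, a replicate block, and each mouse left out. Library totals without TMM were added after seeing the data. Symbols, positions and promoters came from GENCODE vM39 on GRCm39. The named genes were the 10 chaperones, the 10 most similar profiles, and, from each list and comparison, up to 4 genes past the threshold with the largest absolute log2 fold change, besides genes with a role next to one of the 10. Among the similar profiles, 1 gene is not reported here. The members and lists were chosen with earlier results of these data known.

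Replicate numbers were not treated as pairs. Correlations of same-numbered mice were -0.32 to 0.21. With 2 to 4 such pairs per comparison and no other pairs beside them, they cannot tell whether the mice were paired. Totals of 7044386 to 29425937 counts gave at least 335 counts for every chaperone in every liver, so counting error was small beside the spread between mice. The p-values weigh a difference between groups against that spread, estimated over all 8 groups together because the CCl4 group has 2 mice.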

Additional observations from a re-analysis of the deposited data

Results flagged for a closer look

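Of 40 sets of 4 values examined, each from 1 gene in 1 group of 4 mice, 3 held a value far from the rest. Chance alone does this in about 1 of 20 independent sets, and these sets share mice. Hspa5 was low in control mouse 1 (649.4 CPM), Pdia4 was high in control mouse 2 (267.9 CPM) and P4hb was high in CCl4 + siLuc-LNP mouse 3 (2017 CPM).

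The change with 4MU differed between mice given CCl4 and mice not given it for 7 genes by an interaction term in edgeR: Hspa5 (-1.24), Hsp90b1 (-1.51), Pdia3 (-1.14), Pdia4 (-1.01), Pdia6 (-1.18), Dnajc10 (-1.59) and Dnajb11 (-1.29), all as log2 differences. The change with siHAS2-LNP, likewise tested, differed for Dnajc10 (-1.33) and Dnajb11 (-1.06). None of these passed the threshold without CCl4 mouse 2.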

How the results depend on the processing

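The 9 chaperones higher with CCl4, and the 9 lower with each of CCl4 + 4MU and CCl4 + siHAS2-LNP, stayed within 1.5 times those counts under every alternative that kept all mice. At the edge of that bound, limma-voom gave 6 for CCl4 + siHAS2-LNP against CCl4. As 14 against 13 mice the comparison over all arms gave 4. For CCl4 + siHAS2-LNP against siHAS2-LNP, DESeq2, limma-voom and the fit with only the compared groups gave 1 and library totals without TMM gave 2. The siHAS2-LNP interaction gave 5 with DESeq2, 4 without TMM, 4 when no genes were filtered out and 7 with the compared groups alone. CCl4 + siLuc-LNP against CCl4 gave 1 without TMM, 1 with limma-voom and 2 without a filter, and against siLuc-LNP it gave 1 with only the compared groups. Without TMM the median of the 10 genes was 1.47 for CCl4 against control, -1.44 for CCl4 + 4MU against CCl4 and -1.64 for the 4MU interaction, while the median of all genes moved by up to 0.42. With limma-voom it was 0.25 for CCl4 + siLuc-LNP against siLuc-LNP and -0.86 for the siLuc-LNP interaction. The cause was not tested.

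Leaving out 1 mouse at a time gave 6 to 9 genes for CCl4 against control, 5 to 9 over all arms, 3 to 9 for CCl4 + 4MU, 1 to 8 for CCl4 + siHAS2-LNP and 0 to 5 for CCl4 + siLuc-LNP against CCl4, and 3 to 7 for CCl4 + siLuc-LNP against siLuc-LNP. The interactions gave 0 to 8 (4MU), 0 to 2 (siHAS2-LNP) and 0 to 1 (siLuc-LNP). Shares over all tested genes are not given for the fits with a mouse left out. Dnajb9 changed sign for CCl4 against control without CCl4 mouse 2 (range over all mice left out -0.0206 to 0.7399), and for CCl4 + siHAS2-LNP against CCl4 + siLuc-LNP without CCl4 + siHAS2-LNP mouse 2 (-0.0063) or 3 (-0.0048) or CCl4 + siLuc-LNP mouse 3 (-0.2207), with a highest value of 0.3346.

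With a replicate block, 9 genes passed for CCl4 against control, 6 over all arms, 9 for CCl4 + 4MU and 7 for CCl4 + siHAS2-LNP against CCl4, and 5 for the 4MU interaction. With 2 CCl4 mice, each count without CCl4 mouse 1 or 2 assumes that the lone mouse varies like the other groups.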
